A study of Mus musculus with 8 samples.

Results

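Iron handling genes were followed in uterine stromal cells of mice: the 4 STEAP genes (Steap1, Steap2, Steap3 and Steap4), the uptake genes Tfrc, Trf and Slc11a2, the storage gene Fth1 and the export gene Slc40a1. They were selected by symbol, and all 9 were found among the 23420 gene symbols of the count tables. The set was drawn up with results of this comparison known, and Steap4 had already been named among its lower genes, so the differences between genotypes of these 9 genes are given as a description, without a test. The study compared uterine stromal cells of females labelled Erbb3f/f with those of females labelled Erbb3d/d, all at day 3, with 4 libraries of polyadenylated RNA per genotype. By mouse convention f denotes the floxed and d the recombined allele. The labels give no Cre line, no age, no event from which day 3 is counted, and no statement on pooling or on whether each library came from its own animal, so p-values measure the spread between these libraries only.

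Iron circulates bound to transferrin, the product of Trf, and enters cells with the transferrin receptor, the product of Tfrc. In the endosome ferric iron is reduced by a STEAP reductase and leaves through the divalent metal transporter encoded by Slc11a2. Iron that is not used is stored in ferritin, of which Fth1 encodes the heavy chain, or leaves the cell through ferroportin, the product of Slc40a1. STEAP proteins are membrane proteins that carry a haem group, and Steap2, Steap3 and Steap4 reduce both iron and copper, while Steap1 lacks the domain that binds NADPH. Iron regulatory proteins bind hairpins called iron-responsive elements when iron is scarce, which protects the Tfrc transcript and blocks translation of Fth1 and Slc40a1.

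Reads assigned to genes numbered 8578575 to 12854367 per library. Erbb3 itself, read over the whole gene, had 9.64 ± 2.24 CPM in the libraries labelled Erbb3f/f and 13.9 ± 4.56 CPM in those labelled Erbb3d/d, so the libraries labelled Erbb3d/d did not have the lower level, and every direction below follows the labels only. CPM scales reads to the library size after TMM normalisation, and each ± is the SD over the 4 libraries of a genotype. Stromal markers were abundant throughout: 11 genes, among them Hoxa10, Pgr and Pdgfra, summed to between 11427 and 13816 CPM in Erbb3f/f and between 8884 and 12202 CPM in Erbb3d/d. Of these 11, 9 were lower in Erbb3d/d by log2 fold change, with a median of -0.32, while 48% of all tested genes were above 0. Pdgfra and Vim did not overlap between the genotypes and were lower in Erbb3d/d, which was so for 2.48% of all tested genes. Epithelial, smooth muscle and macrophage markers were present as well. Among them Krt19, Cldn4, Cldn7, Myh11, Cnn1 and Cd163 did not overlap and were higher in Erbb3d/d, which was so for 2.56% of all tested genes. Erbb3d/d replicates 3 and 4 had the 2 highest epithelial sums, 1832 and 1918 CPM, against 816 to 1289.6 CPM in the other 6 libraries. At a threshold of 0.05 on the adjusted p, edgeR's quasi-likelihood test called 0 of 14598 genes (0%), and DESeq2 called 258 of 15908 (1.62%). Unadjusted p-values under 0.05 numbered 1695 (11.6%), with 6.64% of genes higher and 4.97% lower in Erbb3d/d. With edgeR, 259 genes (1.75%) were called without Erbb3d/d replicate 2 and 52 (0.356%) with the replicate numbers of the labels as a block.

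The hairpins through which iron regulates some of these transcripts are shown first, as found by a strict search of the sequence. The untranslated regions of coding transcripts in GENCODE vM21 (mouse build GRCm38) were searched on the transcript strand for an unpaired C, then 5 stem bases, then CAGTG and any base as the loop, then 5 bases that pair with the stem, G with T allowed. Matches were found in 3 of the 9 genes and in 155 of 21899 coding genes (0.708%). Each line gives 25 bases with the loop in capitals.
Tfrc 3′ UTR, chr16:32631221-32631245, plus strand: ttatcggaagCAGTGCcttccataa
Tfrc 3′ UTR, chr16:32631600-32631624, plus strand: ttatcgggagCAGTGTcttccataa
Tfrc 3′ UTR, chr16:32631665-32631689, plus strand: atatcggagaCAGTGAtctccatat
Tfrc 3′ UTR, chr16:32631712-32631736, plus strand: ttatcgggaaCAGTGTttcccataa
Fth1 5′ UTR, chr19:9982734-9982758, plus strand: cctgcttcaaCAGTGCttgaacgga
Slc40a1 5′ UTR, chr1:45925467-45925491, minus strand: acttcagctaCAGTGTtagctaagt
The 4 matches of Tfrc lay in the 3′ UTR of 1 of its 2 coding transcripts, that of Fth1 in the 5′ UTR of all 3, and that of Slc40a1 in the 5′ UTR of its only one. The letters were not found in the untranslated regions of Slc11a2, Trf or the STEAP genes. The search allows no bulge or mismatch in the stem, so hairpins of another shape are missed. A gene without a match, Slc11a2 included, is therefore not shown to lack an iron-responsive element. Among the other iron genes described below, 3 of the 69 that could be searched held a match, namely Ftl1, Alas2 and Bola3.

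Levels are compared between genes as CPM per kilobase of merged exons. In the libraries labelled Erbb3f/f the order ran from Fth1 at 199.7 ± 39.4, through Steap3 at 46.9 ± 6.06 and Steap4 at 31.1 ± 7.48, to Tfrc at 13.7 ± 2.09, Trf at 12.5 ± 5.08, Slc11a2 at 9.43 ± 1.32, Slc40a1 at 5.27 ± 1.57, Steap2 at 5.18 ± 0.941 and Steap1 at 3.20 ± 1.53 CPM per kb. The ranges of the 4 libraries were separate between Fth1 and Steap3, between Steap4 and Tfrc, and between Slc11a2 and Slc40a1, and overlapped between the other neighbours. Averaged over all 8 libraries, 99.2% of the tested genes with a known length had a lower level per length than Fth1, 94.1% a lower one than Steap3, 83.1% a lower one than Steap4 and 41.3% a lower one than Steap1.

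In the libraries labelled Erbb3d/d, Fth1 at 205 ± 28.0 and Steap3 at 49.7 ± 3.81 CPM per kb stayed in front, and Steap4, at 13.4 ± 3.02 CPM per kb, stood beside Tfrc at 15.5 ± 1.31 and Trf at 12.9 ± 1.20 CPM per kb. From Tfrc downward each gene's range overlapped that of the next. The place of Slc40a1 depends on its length: with the longest transcript in place of merged exons it was in place 3 in Erbb3d/d, at 25.3 ± 13.6 CPM per kb, and not in place 6, at 11.0 ± 5.94 CPM per kb. In Erbb3f/f the order of the 9 genes was the same with either length, although by the longest transcript Steap3 and Steap4 were separate, Slc11a2 and Slc40a1 overlapped, and Slc40a1 and Steap2 were separate.

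**Figure D1:**
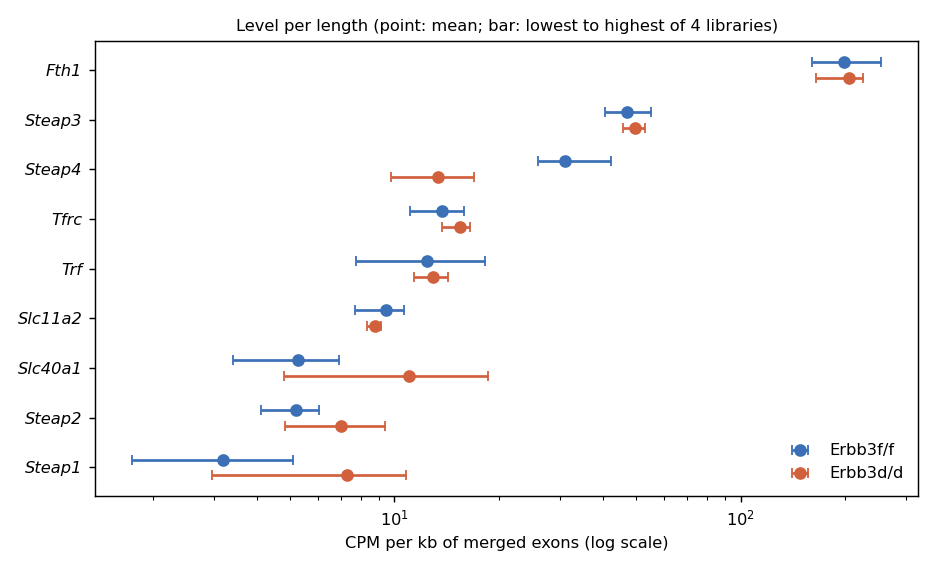
Mean level of each gene in CPM per kilobase of merged exons (log axis), with bars from the lowest to the highest of 4 libraries, for Erbb3f/f in blue and Erbb3d/d in orange. Fth1 lies at 199.7 and 205, and Steap4 moves from place 3 in Erbb3f/f to the range of Tfrc and Trf in Erbb3d/d.

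Steap4, a metalloreductase of the plasma membrane and endosomes known in fat tissue and liver for its response to nutrients and inflammatory cytokines, was the one gene of the set whose genotypes did not overlap. The gene lies at chr5:7960457-7982213 on the plus strand, with 5 merged exons. The 4 Erbb3f/f libraries, in order of replicate number, held 87.4, 133, 90.0 and 81.7 CPM of it (897, 1271, 1146 and 723 reads). The 4 Erbb3d/d libraries, in the same order, held 53.6, 44.7, 30.7 and 40.0 CPM (545, 383, 390 and 456 reads). All 4 libraries labelled Erbb3d/d lay below all 4 labelled Erbb3f/f, which was so for 2.48% of the tested genes, and Erbb3f/f replicate 2 stood above its group. The means were 98.1 ± 23.6 and 42.2 ± 9.51 CPM, a log2 fold change of -1.22 (SE 0.20), or a level 2.32-fold higher in Erbb3f/f. In a bulk sample, fewer cells that carry a transcript and less transcript per cell cannot be told apart.

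Erbb3d/d replicate 2, which lay inside the Erbb3f/f range for Steap1 and Slc40a1, lay below that range for Steap4, at 44.7 CPM. The lowest Steap4 libraries were Erbb3d/d replicates 3 and 4, at 30.7 and 40.0 CPM, which were the highest for Steap1 and Slc40a1. Without Erbb3d/d replicates 3 and 4 the log2 fold change of Steap4 was -0.99 (SE 0.21). With the mean of the epithelial markers as a covariate it was -0.98 (SE 0.27), with that of the smooth muscle markers -1.58 (SE 0.26), with that of the macrophage markers -1.09 (SE 0.21) and with that of the stromal markers, of which most were lower in Erbb3d/d as Steap4 was, -1.15 (SE 0.30). Smooth muscle markers summed to between 826 and 1713 CPM in Erbb3f/f and between 1666 and 3966 CPM in Erbb3d/d, with 8 of 8 above 0 by log2 fold change and none at 0. Steap4 had a log2 fold change below 0 in each of these fits. The covariate was the mean of the markers' log2 CPM. For the epithelial markers it reached 6.395 in Erbb3f/f and began at 6.451 in Erbb3d/d. For the smooth muscle markers it reached 7.3215 in Erbb3f/f and began at 7.3224 in Erbb3d/d. Where the covariate does not overlap between genotypes, the fit cannot separate cell types from genotype.

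The sequence just before the Steap4 start is shown because Steap4 is the gene whose groups were separate. RefSeq (GRCm38.p6) gives 1 start for it, and the 200 bases from position -250 to -51 before that start follow, with the matches to 2 short motifs in capitals.
Steap4 upstream, chr5:7960222-7960421, plus strand: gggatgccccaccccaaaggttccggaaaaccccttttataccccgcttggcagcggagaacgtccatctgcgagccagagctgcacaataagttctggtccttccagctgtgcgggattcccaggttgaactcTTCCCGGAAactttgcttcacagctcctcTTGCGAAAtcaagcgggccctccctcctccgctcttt
The first match in capitals, at -116, is to the STAT motif TTCNNNGAA, which 7.02% of 32851 RefSeq windows of 250 bases before a start hold on either strand. The second, at -87, is to TTGCNNAA, a short form of the C/EBP motif, which 9.56% of the windows hold. The 2 motifs do not overlap here, and neither match says that a factor binds. Also searched, the NF-kB motif, the hypoxia element ACGTG, the antioxidant element TGACNNNGC and the glucocorticoid receptor motif had no match in the 250 bases before the Steap4 start. Of the windows, 16.57% hold the hypoxia element and 10.16% the antioxidant element, but only 0.39% the glucocorticoid receptor motif and 0.14% the NF-kB motif. The NF-kB motif was searched with no variable letter, and other forms of it were not searched. Letters this rare seldom match any window, so the search cannot show that NF-kB or glucocorticoid receptor sites are absent. RefSeq windows were at hand for 6 of the 9 genes.

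**Figure D2:**
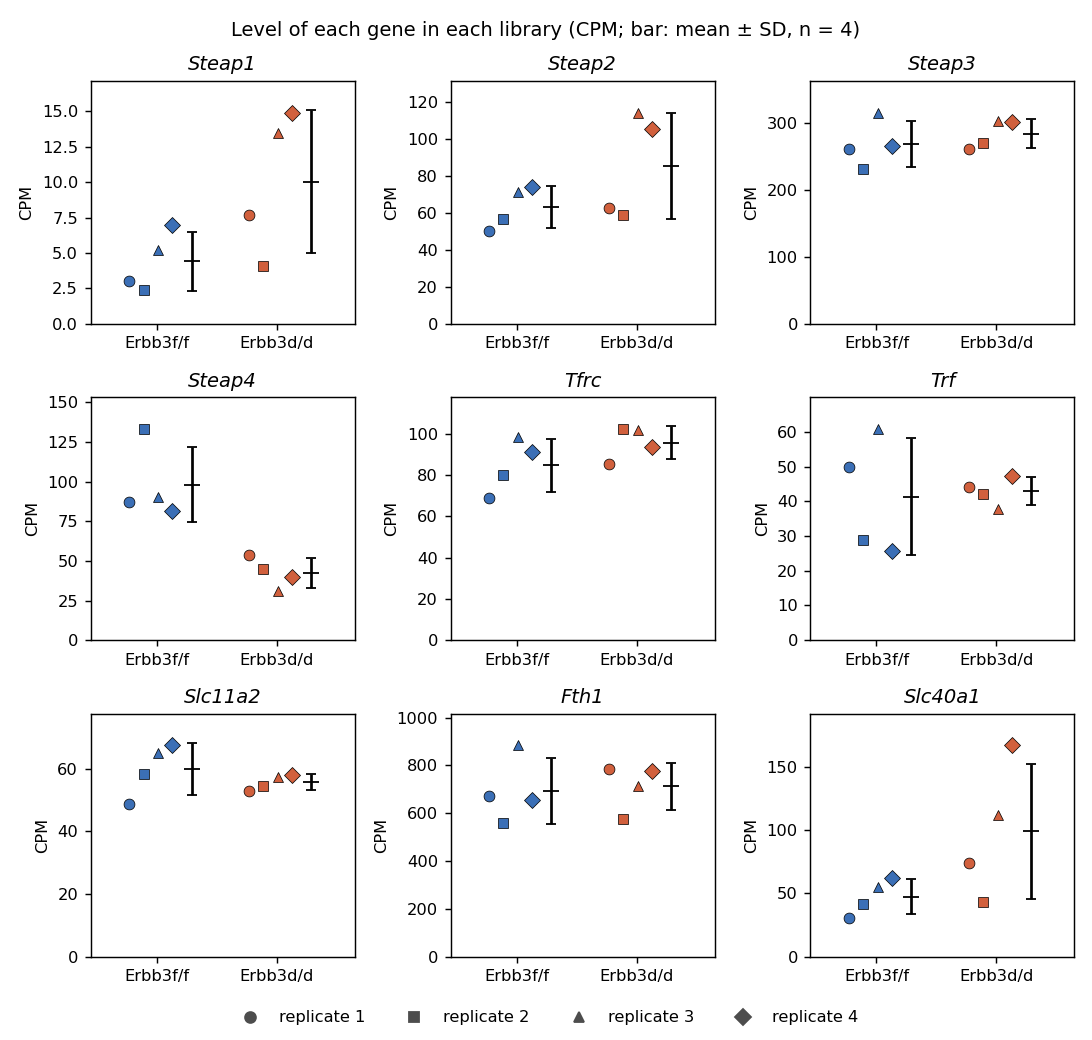
CPM of each of the 9 genes in each library, with replicates 1 to 4 as circle, square, triangle and diamond and the mean ± SD (n = 4) as a black bar. The groups are separate for Steap4 alone, and Erbb3d/d replicates 3 and 4 stand above the rest for Steap1, Steap2 and Slc40a1.

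Steap1, the STEAP protein without an NADPH domain, had the lowest level per length of the set in Erbb3f/f. Replicates 1 to 4 of Erbb3f/f held 3.02, 2.41, 5.19 and 7.01 CPM (31, 23, 66 and 62 reads). Those of Erbb3d/d held 7.67, 4.08, 13.5 and 14.9 CPM (78, 35, 171 and 170 reads). Erbb3d/d replicates 3 and 4 were the 2 highest libraries, while Erbb3d/d replicate 2 lay inside the Erbb3f/f range. On the log2 scale the difference was 1.20 (SE 0.45).

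Steap2, a metalloreductase of the Golgi and endosomes, lies beside Steap1 on chromosome 5. Replicates 1 to 4 had 50.0, 56.8, 71.3 and 73.7 CPM in Erbb3f/f. They had 62.3, 58.8, 114 and 105 CPM in Erbb3d/d. Here too Erbb3d/d replicates 3 and 4 stood apart, and the other pair fell inside the Erbb3f/f range. Replicates 3 and 4 were also the highest within Erbb3f/f, for Steap2 as for Steap1 and Slc40a1, so this order was shared by both genotypes. The log2 fold change was 0.44 (SE 0.23), and -0.05 (SE 0.17) without Erbb3d/d replicates 3 and 4. That pair was left out after the data were seen, and leaving out the highest Erbb3d/d libraries lowers the value by construction.

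Steap3, the endosomal reductase that supplies iron to developing red cells, was the most abundant STEAP transcript and, by the ratio of the highest to the lowest library, the steadiest of the set. It ran from 232 to 315 CPM in Erbb3f/f and from 261 to 303 CPM in Erbb3d/d, with that ratio at 1.36 against 1.39 for Slc11a2, whose coefficient of variation in Erbb3d/d was the smaller one, 4.47% against 7.67%. The log2 fold change was 0.08 (SE 0.11), and its sign was not stable, as it was -0.01 (SE 0.13) without Erbb3d/d replicates 3 and 4 and -0.004 (SE 0.10) with the macrophage covariate.

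Shares of the summed STEAP level describe the 4 genes against each other. Steap4 held 34.7%, 47.3%, 30.6% and 31.1% of the summed STEAP level per kb in Erbb3f/f replicates 1 to 4. Its share was 23.1%, 20.5%, 11.9% and 14.9% in Erbb3d/d replicates 1 to 4. Steap3 held 54.4% ± 6.11 in Erbb3f/f and 64.3% ± 2.84 in Erbb3d/d, and the groups did not overlap for either share. The number of Steap4 reads per Steap2 read, which needs no scaling between libraries, was 1.11 to 2.35 in Erbb3f/f and 0.270 to 0.860 in Erbb3d/d. Per Steap3 read there were 0.286 to 0.575 Steap4 reads in Erbb3f/f and 0.101 to 0.205 in Erbb3d/d. These ratios use the same libraries and the same Steap4 reads as the values above and add no independent evidence.

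Slc40a1 encodes ferroportin, the iron exporter of macrophages, gut and liver. Its ratio of the highest to the lowest of all 8 libraries, 5.46, was the largest after that of Steap1, 6.19. That ratio includes the difference between genotypes. Within Erbb3d/d its coefficient of variation, 53.9%, was above that of Steap1, 50.4%, and within Erbb3f/f it was below, 29.7% against 47.8%. In Erbb3f/f replicates 1 to 4 it had 30.7, 41.6, 55.2 and 62.3 CPM. In Erbb3d/d replicates 1 to 4 it had 74.2, 43.3, 112 and 167 CPM. Only Erbb3d/d replicate 2 lay inside the Erbb3f/f range, and Erbb3d/d replicate 4 was the highest library, without which the log2 fold change was 0.70. The means were 47.4 ± 14.1 and 99.3 ± 53.5 CPM, with a log2 fold change of 1.07 (SE 0.39).

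Steap1 and Slc40a1 were highest in Erbb3d/d replicates 3 and 4, the libraries richest in epithelial markers. Those libraries also had the lowest stromal sums, 10913 and 8884 CPM. The other libraries did not follow the epithelial order. Erbb3f/f replicate 3, with the lowest epithelial sum, 816 CPM, had 5.19 CPM of Steap1 and 55.2 CPM of Slc40a1. Erbb3f/f replicate 1, with a sum of 1220.5 CPM, had 3.02 and 30.7 CPM. The 10 epithelial markers summed to between 816 and 1249 CPM in Erbb3f/f and between 1224 and 1918 CPM in Erbb3d/d, with 8 of 10 higher in Erbb3d/d by fold change and none at 0. Once their mean entered the fit, Steap1 had a log2 fold change of 0.52 (SE 0.67) and Slc40a1 one of 0.44 (SE 0.60). The same 2 values were 1.73 (SE 0.70) and 1.41 (SE 0.65) with the smooth muscle markers, 0.84 (SE 0.44) and 0.74 (SE 0.42) with the macrophage markers, and 0.24 (SE 0.64) and -0.06 (SE 0.42) with the stromal markers. Their size thus depended on the markers used, and for Slc40a1 the sign did as well. The epithelial and smooth muscle means did not overlap between genotypes, so those fits cannot separate cell types from genotype. Without Erbb3d/d replicates 3 and 4, a choice made after the data were seen, Steap1 had 0.42 (SE 0.47) and Slc40a1 0.31 (SE 0.32). Leaving out the highest Erbb3d/d libraries of a gene lowers its difference by construction. Without Erbb3d/d replicate 2, the lowest Erbb3d/d library for both genes, the same 2 values were 1.45 (SE 0.38) and 1.32 (SE 0.31). The groups of both genes then no longer overlapped. The share of all tested genes that were separate without that library was not counted. The cells that carried the Slc40a1 and Steap1 transcripts were not measured.

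**Figure D3:**
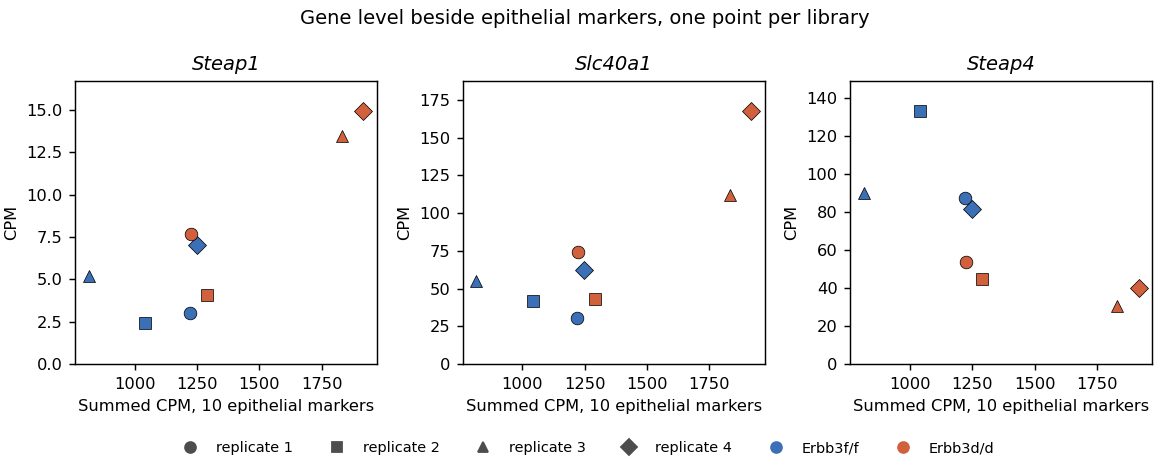
CPM of Steap1, Slc40a1 and Steap4 in each library against the summed CPM of 10 epithelial markers, with blue for Erbb3f/f, orange for Erbb3d/d and a symbol for each replicate number. Steap1 and Slc40a1 are highest in the 2 libraries at 1832 and 1918 on the horizontal axis, and for Steap4 all 4 Erbb3d/d points lie below all 4 Erbb3f/f points.

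Among the uptake genes, Tfrc encodes the transferrin receptor and carries the 4 hairpins printed above. It had 68.8, 80.1, 98.4 and 91.0 CPM in Erbb3f/f replicates 1 to 4. In Erbb3d/d replicates 1 to 4 it had 85.1, 102, 102 and 93.4 CPM. The groups overlapped, with the lowest 2 libraries both labelled Erbb3f/f. Its log2 fold change was 0.18 (SE 0.12), and 0.50 (SE 0.13) with the smooth muscle covariate.

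Trf, the gene of transferrin, is known as a secreted product of liver and also of several other tissues. It had 50.0, 28.9, 60.8 and 25.7 CPM in Erbb3f/f replicates 1 to 4, and 44.2, 42.1, 37.9 and 47.4 CPM in Erbb3d/d replicates 1 to 4. The Erbb3f/f libraries formed a high and a low pair on either side of all 4 Erbb3d/d libraries, so the coefficient of variation came to 40.8% among the former and 9.27% among the latter. Genotypes differed by a log2 fold change of 0.05 (SE 0.25), with its sign turned in 4 of 18 alternatives. The annotated gene Gm20425 covers 63.5% of the merged exons of Trf on the same strand, but it is no row of the count tables.

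Slc11a2, the divalent metal transporter, ran from 48.7 to 67.5 CPM in Erbb3f/f and from 53.0 to 58.2 CPM in Erbb3d/d. Every Erbb3d/d library lay inside the Erbb3f/f range. Genotypes differed by -0.10 (SE 0.11) on the log2 scale. Of its merged exons 6.33% are shared with Gm5475 on the other strand, and in libraries without strand the reads there cannot be assigned.

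Fth1, the ferritin heavy chain that oxidises iron for storage, was the most abundant gene of the set. It had 673, 560, 884 and 654 CPM in Erbb3f/f replicates 1 to 4. In Erbb3d/d replicates 1 to 4 it had 786, 575, 713 and 775 CPM. The lowest library of each genotype was replicate 2, and the ranges overlapped almost wholly. Its log2 fold change was 0.04 (SE 0.15), and -0.12 (SE 0.11) with the macrophage covariate.

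Ferritin is abundant in macrophages, and the order of the libraries by Fth1 was that of the summed macrophage markers within both genotypes. Those sums were 1702, 1149, 2807 and 1585 CPM in Erbb3f/f replicates 1 to 4 and 2123, 1683, 1983 and 2104 CPM in Erbb3d/d replicates 1 to 4. Of 54 pairs of a gene of the set and a marker list, Fth1 and the macrophage list alone had the same order by summed CPM in both genotypes. There are 24 orders of 4 libraries, and the pair was picked out after all 54 were examined. The match was lost when the same markers were averaged as log2 CPM. For Erbb3f/f replicates 1 to 4 that mean was 6.18, 5.68, 6.67 and 6.22. For Erbb3d/d replicates 1 to 4 it was 6.53, 6.18, 6.32 and 6.77. By that mean replicate 4 stood above replicate 1 within each genotype, while by Fth1 replicate 1 stood above replicate 4. Whether macrophages carried the Fth1 transcript was not tested. All 10 macrophage markers were detected and 9 of 10 were above 0 by log2 fold change, with Lyz2, C1qa and Csf1r among the most abundant. Erythroid cells, the main users of Tfrc and Steap3, left little trace: the 8 erythroid genes in the tables summed to between 1.78 and 4.68 CPM, and Hba-a1, Hba-a2 and Hbb-b1 were at 0 in all 8 libraries. Globin genes have near-identical copies, so reads that align to more than 1 place may be missing there.

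Over the 9 genes, all of which passed the filter on low counts, 7 had a log2 fold change above 0, against 48% of all tested genes. The median log2 fold change was 0.08 for the 9 genes and -0.01 for all tested genes. In 3 of the 9, Steap1, Steap4 and Slc40a1, it was at least 1 in size, against 2.96% of all tested genes. The genotypes were separate for 1 of the 9, Steap4, against 5.04% of all tested genes in either direction, 2.48% lower and 2.56% higher. Since the set was chosen from this comparison, these shares describe it and no more.

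The rest of the iron system was read from a list of 70 other genes drawn up from general knowledge, of which 64 passed the filter on low counts. With adjustment over all genes, edgeR's quasi-likelihood test called 0 of the 64 higher and 0 lower, and DESeq2 also called 0. The smallest adjusted p was 0.416 in edgeR's test. At an unadjusted p under 0.05 there were 2, Slc39a8 and Erfe, or 3.12% against 11.6% of all tested genes, and the genotypes were separate for 0 of the 64. The log2 fold change was above 0 for 29 and below 0 for 35, with a median of -0.02.

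Of 13 tested uptake and transport genes, 6 were above 0 and 7 below 0. Snx3, a sorting nexin that recycles the transferrin receptor, was the most abundant, with 169 ± 17.3 CPM in Erbb3f/f against 175 ± 2.30 CPM in Erbb3d/d. Slc39a8, a zinc, manganese and iron importer, had 23.5 ± 5.07 and 17.8 ± 2.08 CPM and a log2 fold change of -0.40 (SE 0.17). Its adjusted p in edgeR's test was 0.416.

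Ferrireductases outside the STEAP family had 4 of 6 above 0. Cyb561a3, a lysosomal cytochrome b561 listed under its older symbol Cybasc3, led by level with 49.0 ± 3.84 CPM in Erbb3f/f against 50.5 ± 9.93 CPM in Erbb3d/d. Frrs1, a ferric-chelate reductase, had the smallest p of this group, with 9.41 ± 1.80 and 13.0 ± 2.40 CPM and a log2 fold change of 0.46 (SE 0.21). Its adjusted p in edgeR's test was 0.432.

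Storage genes and chaperones had 2 of 4 tested genes above 0. Ftl1, the ferritin light chain, had 1220.2 ± 251 CPM in Erbb3f/f against 1438 ± 142 CPM in Erbb3d/d. There were 0.570 ± 0.0361 Fth1 reads per Ftl1 read in Erbb3f/f and 0.495 ± 0.0406 in Erbb3d/d, and the ranges overlapped. Ferritin genes have near-identical processed copies, so both counts are uncertain to that extent. Ncoa4, the receptor that takes ferritin to the lysosome, had a log2 fold change of -0.23 (SE 0.11), with adjusted p = 0.461 by edgeR's test. Of the ferroxidases, Heph had 39.1 ± 2.67 and 36.3 ± 4.78 CPM.

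Among sensors and regulators 2 of 7 tested genes were above 0. Ireb2, which encodes an iron regulatory protein, had 168 ± 14.9 CPM in Erbb3f/f against 153 ± 6.35 CPM in Erbb3d/d. Erfe, the hepcidin suppressor erythroferrone, listed under its older symbol Fam132b, had 1.87 ± 0.991 and 4.48 ± 3.23 CPM. Its log2 fold change of 1.28 (SE 0.56) came with adjusted p = 0.418 by edgeR's test. The hepcidin gene Hamp did not pass the filter and had at most 0.393 CPM in any library.

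Haem genes had 7 of 17 above 0, and iron-sulfur assembly genes 7 of 15. Slc48a1, a haem transporter of the lysosome, was both the most abundant haem gene and the one with the smallest p, with 92.5 ± 14.0 CPM in Erbb3f/f against 112 ± 13.8 CPM in Erbb3d/d, a log2 fold change of 0.28 (SE 0.13), with adjusted p = 0.435 by edgeR's test. Hspa9, the mitochondrial chaperone of cluster assembly, had 223 ± 27.0 and 213 ± 28.6 CPM.

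**Figure D4:**
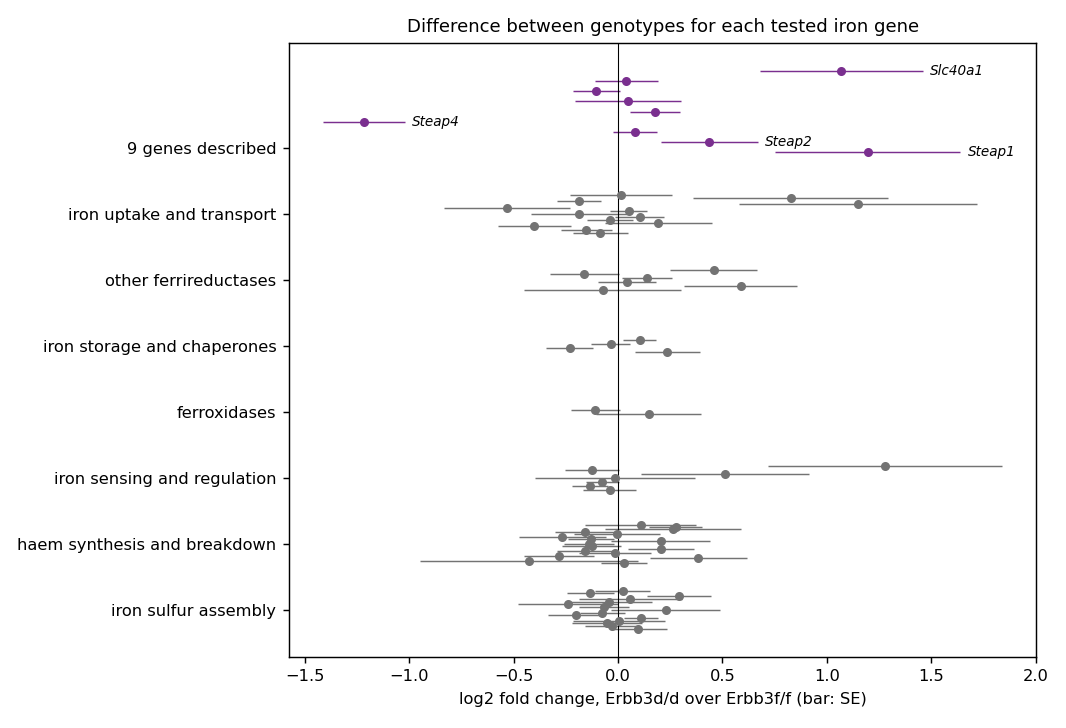
Log2 fold change of Erbb3d/d over Erbb3f/f with its SE for the 9 genes described (purple) and for the 64 other tested iron genes by group (grey). Steap4 lies at -1.22, below all of the other iron genes, whose lowest value is -0.53, while Steap1 and Slc40a1 lie within the upper range of the other iron genes, which reaches 1.28.

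The dependence of the 9 differences on the libraries and on marker covariates was compared over 18 alternatives. Steap4 stayed between -1.58 and -0.98, Steap1 between 0.24 and 1.73, Slc40a1 between -0.06 and 1.41 and Tfrc between 0.10 and 0.50 on the log2 scale. The log2 fold changes of Steap2, Steap3, Trf, Slc11a2, Fth1 and Slc40a1 crossed 0 in at least 1 alternative.

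**Figure D5:**
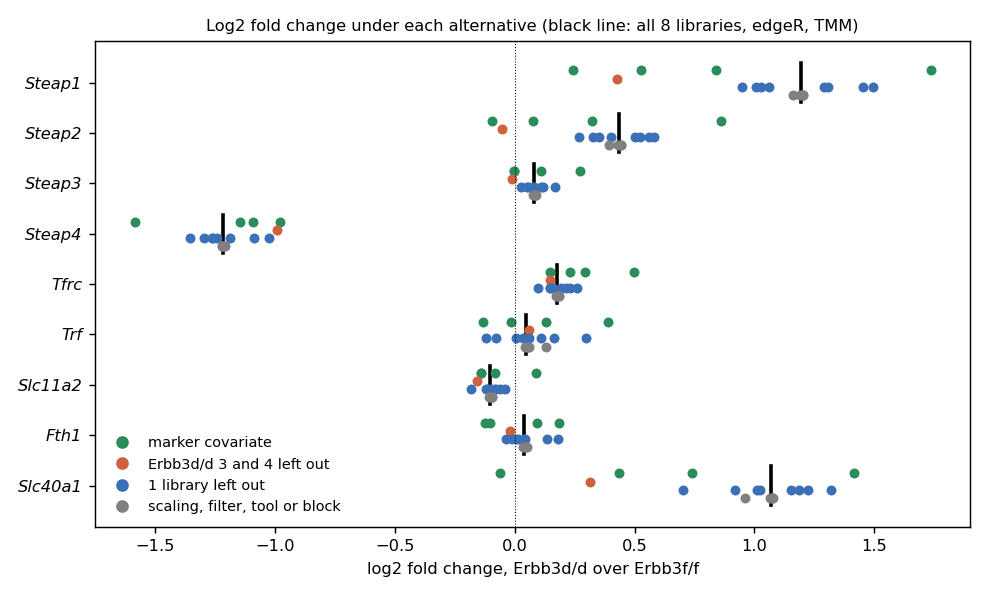
Log2 fold change of each of the 9 genes under each of 18 alternatives, with the value from all 8 libraries as a black line, marker covariates in green, Erbb3d/d replicates 3 and 4 left out in orange, 1 library left out in blue, and other scalings, filters, tools or the block in grey. The points of Steap4 stay at or below -0.98, and the orange points of Steap1, Steap2 and Slc40a1 lie closer to 0 than the black line. Replicates 3 and 4 are the highest Erbb3d/d libraries for those genes, so leaving them out lowers the value by construction.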

How the data were processed

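The authors deposited 1 table of raw read counts per library, without normalization. HISAT2, SAMtools, HTSeq and StringTie and the builds mm10 and GRCm38 are named in the submitters' processing notes, without versions, roles or counting options, and the annotation is not given in the sources used here. Per the labels, libraries were not directional. Lines that name no gene held 70.9% to 73.0% of the entries and were left out of library sizes and tests.

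The differences were fitted with edgeR (version 4.0.16; limma 3.58.1, R 4.3.3): filterByExpr, TMM scaling, and the quasi-likelihood test with genotype as the only term, adjusted by Benjamini and Hochberg over 14598 genes. DESeq2 1.42.0 was an alternative, as were other scalings, no filter, a replicate block, leaving out libraries, and marker covariates. The SE of a log2 fold change is its size divided by the square root of the test's F.

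The members and lists were chosen with earlier results of these data known. Named genes are the 9 members and, in each group of other iron genes, any called gene, the most abundant and the one with the smallest p. 1 gene that this rule names is not reported here. Older symbols were matched for Cyb561a3, Erfe, Hjv, Flvcr1 and Flvcr2. Lengths and hairpins came from GENCODE vM21, with 93.8% of tested genes matched, and upstream sequence from RefSeq. Precision is limited by 4 libraries per genotype.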

Additional observations from a re-analysis of the deposited data

Results flagged for a closer look

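Of 54 groups of 4 libraries examined for a library far from the other 3, 2 held one, where chance at 1 in 20 gives 2.7. Steap4 had 133 CPM in Erbb3f/f replicate 2, with the nearest Erbb3f/f library at 90.0 CPM. Without that library the log2 fold change of Steap4 was -1.02 (SE 0.17), against -1.22 (SE 0.20) with it. Cyb561a3 had 54.8 CPM in Erbb3f/f replicate 3, with the nearest Erbb3f/f library at 47.4 CPM.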

How the results depend on the processing

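The number of genes called over the whole genome, 0 with all 8 libraries in edgeR's test, was 258 with DESeq2, 52 with the replicate block and 0 to 259 when 1 library was left out, the 259 without Erbb3d/d replicate 2. The number of other iron genes called was 0 in all 18 alternatives. The number of genes of the set whose genotypes did not overlap was 1 to 3 when 1 library was left out, and the 3 without Erbb3d/d replicate 2 were Steap4, Steap1 and Slc40a1. Fewer libraries separate more easily. The share over all tested genes was counted only with all 8 libraries, at 5.04%, so these 3 are not a result about the set. Over the 18 alternatives, 151 log2 fold changes of the 9 genes moved by less than the spread between libraries and 11 moved further. Those 11 arose with the smooth muscle covariate (Steap2 0.86, Steap3 0.27, Steap4 -1.58, Tfrc 0.50, Slc11a2 0.09), with the stromal covariate (Steap1 0.24, Steap2 -0.09, Slc40a1 -0.06) and without Erbb3d/d replicates 3 and 4 (Steap1 0.42, Steap2 -0.05, Slc40a1 0.31). The last 2 alternatives were chosen after seeing the data. The cause was not tested. Same-numbered libraries of both genotypes had correlations of 0.221, 0.159, 0.0959 and 0.145 between their deviations from the genotype means, and 3 of 4 Erbb3f/f libraries correlated best with their own number, which is a hint of pairing in the data. The block was kept as an alternative because the labels do not say what a number stands for. Of the 4 correlations, 1 was under 0.1. With the replicate block the log2 fold change was 1.16 (SE 0.22) for Steap1, 0.39 (SE 0.12) for Steap2, 0.96 (SE 0.22) for Slc40a1 and -1.21 (SE 0.16) for Steap4, each with a smaller SE than without it. With 31 Steap1 reads in Erbb3f/f replicate 1 and 23 in replicate 2, the level of that gene is the least precise of the set.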

Other observations

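Among the genes of iron-binding proteins that cells secrete, Ltf and Lcn2 had their highest values in the libraries in which Steap1 and Slc40a1 were highest. Trf did not, as Erbb3d/d replicate 3 was its lowest Erbb3d/d library, at 37.9 CPM. Ltf and Lcn2 are named here after their values were seen. Ltf, which encodes lactoferrin, a secreted product of uterine epithelium, had 60.9, 68.0, 70.8 and 132 CPM in Erbb3f/f replicates 1 to 4 and 107, 45.3, 215 and 220 CPM in Erbb3d/d replicates 1 to 4. Lcn2, which encodes a protein that binds iron-carrying siderophores, had 6.53, 6.28, 8.01 and 13.3 CPM in Erbb3f/f and 12.0, 3.97, 22.3 and 36.9 CPM in Erbb3d/d, in the same order of replicates. Both were lowest in Erbb3d/d replicate 2 and highest in Erbb3d/d replicates 3 and 4. Their adjusted p-values in edgeR's quasi-likelihood test were 0.527 for Ltf and 0.479 for Lcn2.

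The genes whose library-to-library deviations within the genotypes were most like those of Steap4 were Pard6g (Pearson r = 0.977), Dixdc1 (0.975), Epb4.1l2 (0.966), Galnt11 (0.958) and Ttll7 (0.957), out of 14517 genes ranked over 8 libraries. For Tfrc they were Sclt1 (0.989), Bicc1 (0.975), Zbtb34 (0.975), Minpp1 (0.971) and Bcdin3d (0.969). With 8 libraries and so many genes ranked, values of this size are a description only.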
